A study of Mus musculus with 44 samples.

Results

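The fibrillar collagen genes are the 9 members of the collagen family followed here in mouse skin: Col1a1, Col1a2, Col3a1, Col5a1, Col5a2, Col5a3, Col11a1, Col24a1 and Col27a1. They were chosen by name, as genes for chains that polymerize into collagen fibrils, from the 43411 genes in the table. The rule of choice used no expression value, although earlier results of these data were known. RNA from the back skin of 44 wild-type female C57Bl/6 mice was sequenced in a model of dermal fibrosis, in which bleomycin, a DNA-damaging antibiotic, is injected under the skin each day (100 µL at 1 U/mL by the labels, from 8 weeks of age). The study's documents do not all give the same bleomycin concentration. There were 10 saline mice, 10 mice after 2 weeks of bleomycin, 10 after 4 weeks, 6 after 6 weeks of recovery and 8 after 10 weeks of recovery, the last 2 groups having first received bleomycin for 4 weeks. The labels do not say at which time the saline mice were killed, so age and recovery cannot be told apart in comparisons of the recovery groups. Each mouse gave 1 library from part of a whole skin biopsy, and between 8509094 and 15285577 reads (median 11310008) fell on genes.

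Fibrillar collagens are made as procollagens, in which 3 alpha chains fold into a triple helix inside the cell. After secretion the propeptides are cut off, and the molecules assemble into fibrils that lysyl oxidases cross-link. Type I is the main collagen of the dermis and type III is mixed into its fibrils. Types V and XI are minor collagens that start fibrils and limit their width, and types XXIV and XXVII are short-helix members of the family that are best known from bone and cartilage. Fibroblasts are the main source of types I, III and V in skin.

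In outline, both type I chains, Col5a1, Col5a3 and Col11a1 stood lower than in saline skin after 2 weeks of bleomycin and, in limma, none of them passed both thresholds against saline after 4 weeks. Col24a1 was the only member past both thresholds above saline, and only at 4 weeks. The mean levels of Col1a1, Col1a2, Col3a1, Col5a1 and Col5a2 were highest at 6 weeks of recovery and their 8 mice at 10 weeks all lay below those 6 mice, although limma, as used throughout, called no member between the recovery times and the other settings called up to 5. A gene is called here where its fold change exceeds 1.5 and its adjusted p is below 0.05 in limma, over 17037 genes with a mean normalized count above 3. All 9 members passed that filter on level.

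Stretches of promoter are shown for the 4 members with a matched sequence that were called lower at 2 weeks (Col1a2, Col5a1, Col5a3 and Col11a1) and for Col24a1, called higher at 4 weeks, so that the start of each gene can be read beside its values. Of the 9 members, 7 had a promoter in the RefSeq table (build GRCm38.p6), and Col1a1 and Col5a2 had no entry. The 130 bases before each start are printed on the gene's own strand. Capitals mark the CCAAT box (CCAAT), the binding sequence of the factor NF-Y, the GC box (GGGCGG), the binding sequence of Sp1, and the TATA box (TATAAA), each searched on both strands.
Col1a2, chr6:4505488-4505617, plus strand: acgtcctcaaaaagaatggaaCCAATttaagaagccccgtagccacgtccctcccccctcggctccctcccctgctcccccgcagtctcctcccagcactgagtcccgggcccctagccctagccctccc
Col5a1, chr2:27886295-27886424, plus strand: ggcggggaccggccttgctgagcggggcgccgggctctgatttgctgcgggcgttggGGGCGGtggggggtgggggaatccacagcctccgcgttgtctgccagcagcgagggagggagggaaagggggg
Col5a3, chr9:20815068-20815197, minus strand: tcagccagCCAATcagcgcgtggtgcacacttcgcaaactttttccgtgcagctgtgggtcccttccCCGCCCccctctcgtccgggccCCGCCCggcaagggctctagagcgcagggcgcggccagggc
Col11a1, chr3:114030410-114030539, plus strand: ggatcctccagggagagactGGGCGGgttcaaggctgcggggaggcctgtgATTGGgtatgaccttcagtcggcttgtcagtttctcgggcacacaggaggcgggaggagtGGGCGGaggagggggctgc
Col24a1, chr3:145292342-145292471, plus strand: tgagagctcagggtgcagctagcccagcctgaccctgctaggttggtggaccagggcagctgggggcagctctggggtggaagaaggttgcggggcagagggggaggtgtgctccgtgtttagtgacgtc

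Over the 250 bases before the start, a CCAAT box was found in 3 of the 7 member windows (Col1a2, Col5a3 and Col11a1) and in 33.8% of all 32851 windows in the table. A GC box was found in 5 of the 7 (Col1a2, Col5a1, Col5a3, Col11a1 and Col27a1) and in 32.7% of all. A TATA box was found in 1 of the 7 (Col3a1) and in 12.4% of all. The Col24a1 window held none of these letters. The Col1a2 and Col27a1 windows lie inside the gene models of the annotation used for positions here, since RefSeq starts these genes further in. These matches describe the sequence in these windows and nothing about the binding of a factor.

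A second sequence feature that the choice of members did not use is the seed match of the miR-29 family, small RNAs known for pairing with collagen messages. The mature miRNAs share 1 seed (bases 2 to 8, in capitals).
mmu-miR-29a-3p: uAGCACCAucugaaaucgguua
mmu-miR-29b-3p: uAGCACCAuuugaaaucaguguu
mmu-miR-29c-3p: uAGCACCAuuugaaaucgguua
The complement of that seed, TGGTGCT, was present after the stop codon of the main transcript in 8 of the 9 members (all but Col1a2), against 12.6% of 20886 protein-coding genes. The stretch searched was 785 (Col5a3) to 2498 (Col5a1) bases long in the members. A longer stretch holds such a match more often, and the share over all genes was not matched for length. Col5a1 held 4 copies, Col5a3 held 3 and Col11a1 held 2, and the other 5 genes held 1 each. The first copy is shown for a member of each of the major types, with the match in capitals.
Col1a1: ggaatttcTGGTGCTatagaagc
Col3a1: tgtctcaaTGGTGCTataataaa
Col5a1: tgaacattTGGTGCTgaattttt
Col11a1: gatttcgtTGGTGCTgtagaaaa
The libraries measured mRNA, and no level of miR-29 was measured here.

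Levels of different genes were compared as normalized counts per kb of the main transcript. In saline skin Col1a2 stood at 8031 ± 2941 (SD, n = 10) per kb, Col3a1 at 7874 ± 2672 and Col1a1 at 5531 ± 2113. The SD describes the spread over mice and does not measure differences between genes of the same mouse. Within saline mice the ratio of Col1a1 to Col1a2 per kb ran from 0.630 to 0.808. The ratio of Col3a1 to Col1a1 ran from 0.927 to 1.707. The type V chains followed with 510.0 ± 128.5 per kb for Col5a2, 359.8 ± 106.0 for Col5a1 and 281.8 ± 66.7 for Col5a3. Within saline mice the ratio of Col5a3 to Col5a1 per kb ran from 0.646 to 0.962. Col11a1 (34.9 ± 26.0 per kb) and Col27a1 (26.3 ± 2.89 per kb) came next, in no fixed order within mice. In saline mouse 1 they stood at 87.9 and 23.3 per kb, and in saline mouse 2 at 5.81 and 23.6. Col24a1 was lowest at 4.87 ± 1.19 per kb. Over all mice Col3a1 ranked 125 and Col1a2 ranked 127 among the 17037 genes per kb, while Col24a1 ranked 14807. Together the 9 genes took a mean of 1.15% of the reads in saline mice, 0.772% in the 2-week and 1.30% in the 4-week bleomycin mice, and 1.55% in the 6-week and 0.733% in the 10-week recovery mice.

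**Figure D1:**
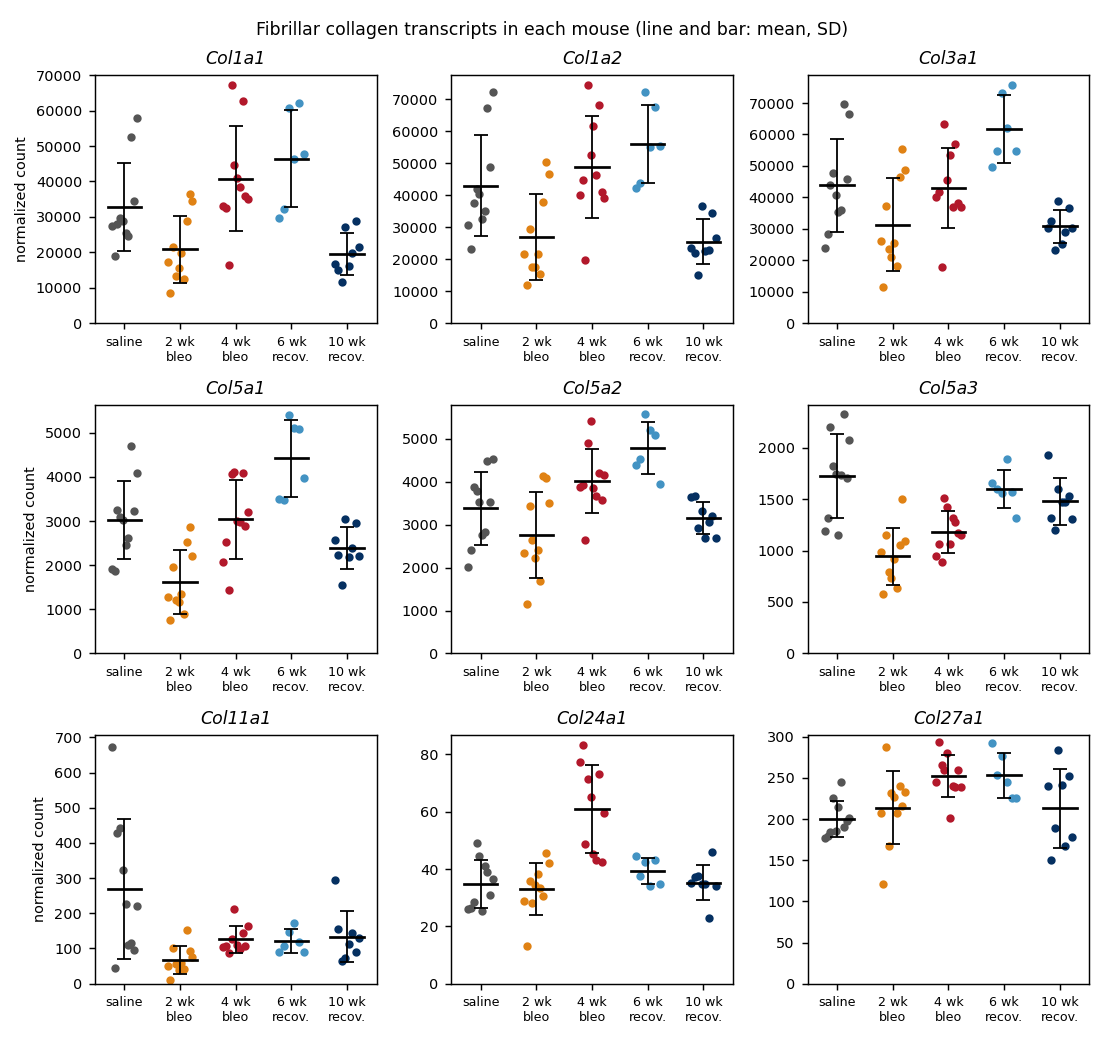
Normalized counts (vertical axis, linear from 0) of the 9 fibrillar collagen genes in each of the 44 mice by group, with the mean as a line and the SD as a bar. The means of Col1a1 to Col5a2 are lower after 2 weeks of bleomycin than after 4 weeks, while the mice of these 2 groups overlap. Limma did not call that difference for Col3a1. For the same genes, the 8 mice at 10 weeks of recovery lie below the 6 mice at 6 weeks of recovery, without overlap.

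Several marker lists moved with the groups and are given first. Of all genes, 9.30% were called higher than in saline mice and 7.43% lower at 2 weeks of bleomycin. At 4 weeks 10.5% were called higher and 7.37% lower. At 2 and 4 weeks of bleomycin, 8 and 6 of 12 fibroblast markers were called lower, among them Pi16 (log2 change -2.67 at 2 weeks) and Pdgfra (-1.24). The summed level of the list ran from 13599 to 30582 normalized counts per kb in saline mice, from 11755 to 25051 in 2-week and 13300 to 19645 in 4-week bleomycin mice, and from 19669 to 29133 over both recovery groups. The macrophage and leukocyte list had 6 of 8 genes higher at both bleomycin times, and its sum lay between 4749 and 12272 per kb in saline mice and between 12430 and 23299 at 2 weeks, without overlap. At 4 weeks this sum ran from 11551.6 to 20580.5 and overlapped that of saline mice. All 10 of the hair matrix and inner root sheath markers found in the table were lower at both times, with a median sum of 21242 per kb in saline mice, 89.8 at 2 weeks and 103.7 at 4 weeks. The hair sums ran from 1113 to 114059 per kb in saline mice and from 81.7 to 1089 at 2 weeks. At 4 weeks they ran from 89.8 to 2543 and overlapped those of saline mice. Epidermal markers were present in every group and none of 8 was called at either bleomycin time. In whole skin, fewer fibroblasts and less collagen RNA per fibroblast cannot be told apart, and the part of these shifts in the collagen results was not tested.

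**Figure D2:**
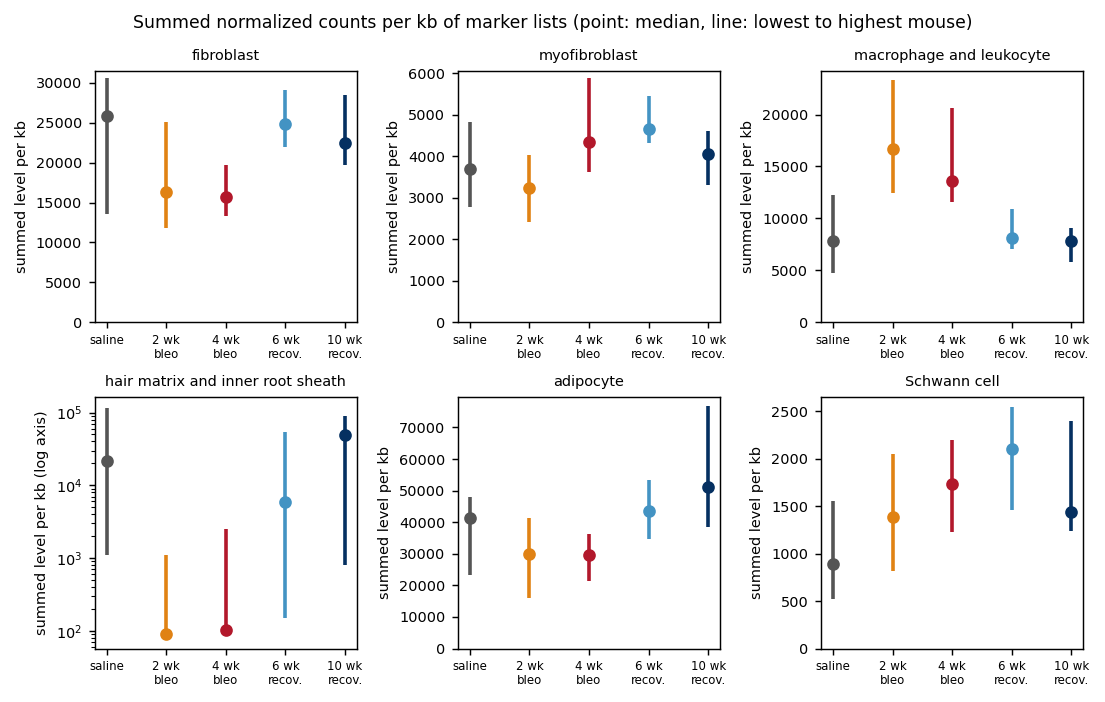
Summed normalized counts per kb of 6 marker lists by group (point, median; line, lowest to highest mouse), with a log axis for the hair list only. Median fibroblast sums are lower, median macrophage sums higher and median hair sums far lower at 2 and 4 weeks of bleomycin than in saline mice.

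Saline mouse 1 and 2-week bleomycin mouse 2 correlated least with the rest of their own groups (median r of 0.942 and 0.938). The 2-week mouse had the lowest value of its group for all 9 members, and saline mouse 1 had the highest Col11a1 and the lowest Col3a1, Col5a2 and Col27a1. Where leaving out both mice changed a call of a member, or moved a list's count by over 1.5 times, the value over the other 42 mice is given beside it. Between the recovery groups only the number of members called over 42 mice is given.

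The comparison of 2 weeks of bleomycin with saline asks how the fibrillar collagens stand early in the injections. Of the 9 members, 5 were called lower and none higher, beside 7.43% of all genes called lower and 9.30% called higher. The median log2 change of the members was -0.713, against 0.003 over all genes. The called members were both type I chains, 2 of the 3 type V chains and Col11a1, and over 42 mice the same 5 were called.

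Col1a1 (chr11:94936224-94953042) encodes the α1 chain of type I collagen. It ranged from 18893 to 57983 normalized counts in saline mice (median 28540) and from 8515 to 36511 at 2 weeks (median 18491). The groups overlapped, with 5 of 10 bleomycin mice below every saline mouse. The log2 fold change was -0.71 (SE 0.24) with an adjusted p of 0.0148, and without 2-week mouse 2 it was -0.58 (adjusted p = 0.0384), just inside the 1.5-fold limit and therefore not called.
Col1a2 (chr6:4504814-4541544), the α2 chain that joins it, ranged from 23285 to 72185 in saline mice (median 39021) and from 12033 to 50235 at 2 weeks (median 21705). Its change was -0.75 (SE 0.23, adjusted p = 0.00923), and 6 of 10 mice lay below every saline mouse.

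Col3a1 (chr1:45311538-45349706), the only chain of type III collagen, had medians of 42450 in saline mice and 25811 at 2 weeks, with ranges of 23839 to 69812 and 11540 to 55381. Its change of -0.56 (SE 0.22, adjusted p = 0.0408) passed the p threshold and missed the 1.5-fold limit. In 7 refits that each left out 1 mouse (saline mouse 1, 2 or 6, or 2-week mouse 3, 8, 9 or 10) it passed that limit, with changes of -0.67 to -0.585.

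The type V genes did not move as 1 block at 2 weeks. Col5a1 (chr2:27886425-28039514), the α1 chain found in all common forms of type V collagen, ranged from 1876 to 4709 in saline mice (median 3057) and from 763.4 to 2866 at 2 weeks (median 1312). All 10 bleomycin mice lay below the saline median, and the log2 change was -0.97 (SE 0.20, adjusted p = 0.000128). Col5a3 (chr9:20770050-20815067), the α3 chain of a less common form, ranged from 1153 to 2328 in saline mice (median 1735) and from 578.7 to 1502 at 2 weeks (median 949.2). In 9 of 10 bleomycin mice it was below every saline mouse, with a change of -0.89 (SE 0.13, adjusted p = 7.48e-07). Col5a2 (chr1:45374321-45503282), the α2 chain and the neighbour of Col3a1 at a distance of 24614 bp on the opposite strand, had medians of 3524 and 2530. Its change was -0.34 (SE 0.16, adjusted p = 0.0917) and was not called.

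Col11a1 (chr3:114030540-114220718), the α1 chain of type XI collagen, fell most in size. It ranged from 44.5 to 673.7 in saline mice (median 222.6), the widest relative spread of any member there (CV 74.3%), and from 10.4 to 154 at 2 weeks (median 57.3). The groups overlapped, although all 10 bleomycin mice lay below the saline median. The log2 change was -1.82 (SE 0.36, adjusted p = 7.74e-05), and -1.37 (SE 0.32, adjusted p = 0.00064) over 42 mice.
The short-helix members were not called. Col24a1 (chr3:145292472-145552011) had a median of 33.8 in both groups and a change of -0.10 (95% interval -0.42 to 0.23). Col27a1 (chr4:63214004-63334991) had medians of 194.1 and 221.2 and a change of 0.07 (95% interval -0.15 to 0.29). All members but Col1a1 and Col11a1 overlap another annotated gene. On the same strand these are Gm43921 at Col1a2, the miRNA gene Gm47302 at Col3a1, Gm38211 at Col5a2, D530037P16Rik at Col24a1 and Mir455 at Col27a1. On the opposite strand they are 2810430I11Rik and Gm13372 at Col5a1, Gm26274 at Col5a3 and 9530034A14Rik at Col24a1. The counts of these 7 members are uncertain where the counting could mix strands or genes.

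After 4 weeks of bleomycin, 1 of the 9 members was called higher than in saline mice, beside 10.5% of all genes, a share near that background, and none was called lower (7.37% of all genes). Col24a1 ranged from 25.5 to 49.0 in saline mice (median 33.8) and from 42.6 to 83.3 at 4 weeks (median 62.3). All 10 bleomycin mice stood above the saline median and 6 stood above every saline mouse. The log2 change was 0.79 (SE 0.16, adjusted p = 0.000113), at a low level of 44 to 94 reads per mouse. Col27a1 had 6 of 10 mice above every saline mouse, with medians of 194.1 and 252.6, and its change of 0.33 (SE 0.11, adjusted p = 0.0126) missed the 1.5-fold limit.

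Col5a3 remained under its saline level at 4 weeks. It ranged from 887.6 to 1508 (median 1159), with all 10 mice below the saline median, and its change of -0.53 (SE 0.13, adjusted p = 0.00154) missed the fold limit. Without saline mouse 6 it was -0.59 (adjusted p = 0.000453) and was called. Col11a1 ranged from 88.0 to 212.3, with a change of -0.72 (SE 0.36, adjusted p = 0.113). On the recovered reads it was called lower, at -1.06 with edgeR's quasi-likelihood test (adjusted p = 0.0101) and -1.09 with DESeq2 (adjusted p = 0.0064), and without saline mouse 2 limma called it too (-0.96, adjusted p = 0.0221).
The main dermal chains gave no call against saline at 4 weeks. The changes were 0.30 (95% interval -0.17 to 0.78) for Col1a1, 0.18 (-0.28 to 0.65) for Col1a2, -0.02 (-0.46 to 0.42) for Col3a1, 0.00 (-0.40 to 0.40) for Col5a1 and 0.27 (-0.05 to 0.60) for Col5a2. The intervals of Col3a1 and Col5a1 lie within the 1.5-fold limit in both directions, and those of Col1a1, Col1a2 and Col5a2 reach past it on the upper side.

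The comparison of the bleomycin times with each other carried the rise from the 2-week level. The log2 change from 2 to 4 weeks was positive for all 9 members, and 5 were called higher, beside 1.49% of all genes called higher. The members' median log2 change was 0.886, against -0.003 over all genes. At an unadjusted p under 0.05, all 9 members passed, beside 20.8% of all genes in either direction.
Col1a1 was 1.02 higher on the log2 scale (SE 0.24, adjusted p = 0.00763), with medians of 18491 and 37216 and 5 of 10 mice above every 2-week mouse. Col1a2 was 0.93 higher (SE 0.23, adjusted p = 0.0118), with medians of 21705 and 45482, and lost its call with only the 2 groups fitted (adjusted p = 0.0509). Col5a1 was 0.97 higher (SE 0.20, adjusted p = 0.00248), and all 10 of its mice at 4 weeks stood above the 2-week median. Col24a1 was 0.89 higher (SE 0.16, adjusted p = 0.000816), with 7 of 10 mice above every 2-week mouse. Col5a2 was 0.62 higher (SE 0.16, adjusted p = 0.0168). It was not called without 2-week mouse 2 or 7 or 4-week mouse 4 or 5 (0.49 to 0.58). Its call was also lost at 0.49 (adjusted p = 0.0213) over 42 mice and at 0.54 with edgeR (adjusted p = 0.0307) and DESeq2 (adjusted p = 0.0142), each under the fold limit, and with only the 2 groups fitted (adjusted p = 0.0659).
The members not called were Col3a1 at 0.54 (adjusted p = 0.137, called at 0.67 without 4-week mouse 3), Col5a3 at 0.36 (adjusted p = 0.101), Col11a1 at 1.10 (adjusted p = 0.0612, called without saline mouse 1 or 2 or 2-week mouse 3, 8 or 9) and Col27a1 at 0.26 (adjusted p = 0.141). In the same comparison 1 of 12 fibroblast markers was called higher (Fbln2), as were 2 of 6 myofibroblast markers (Cthrc1 and Lrrc15) and 2 of 6 Schwann cell markers (Sox10 and Cdh19, of which 1 was called over 42 mice or with edgeR), and none of the macrophage list was called. Their part in the collagen changes was not tested.

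**Figure D3:**
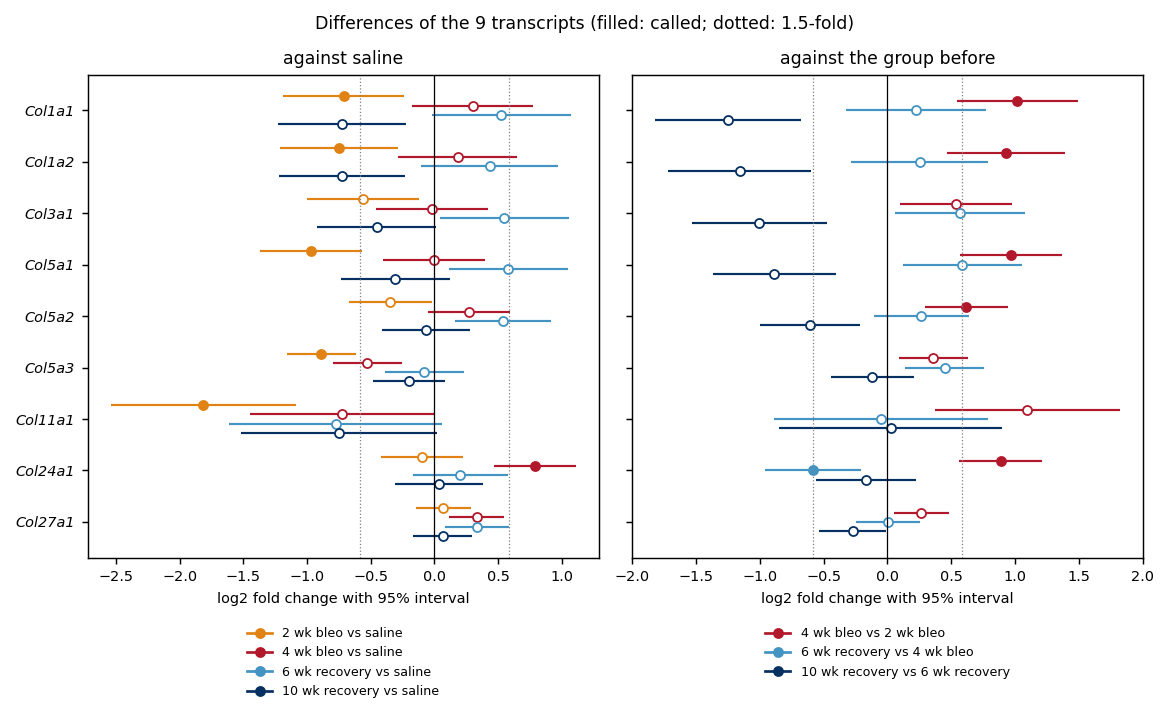
Log2 fold changes of the 9 members with 95% intervals, against saline (left) and against the preceding group (right), with filled points for called genes and dotted lines at 1.5-fold. The 2-week points lie left of 0 for 8 of 9 members, and all 9 points of 4 against 2 weeks of bleomycin lie right of 0.

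At 6 weeks of recovery, none of the 9 members was called against saline by limma, beside 5.04% of all genes called in either direction. At an unadjusted p under 0.05 there were 4 (24.8% of all genes), edgeR called none and DESeq2 called 1, Col11a1 lower at -1.15 (adjusted p = 0.0394). The means of Col1a1, Col1a2, Col3a1, Col5a1 and Col5a2 were the highest of any group. Col3a1 ranged from 49803 to 75842 (median 58363), with all 6 mice above the saline median, and its difference from saline was 0.55 (95% interval 0.04 to 1.06, adjusted p = 0.161). Col5a1 ranged from 3482 to 5404 (median 4527), a difference of 0.58 (0.12 to 1.05, adjusted p = 0.1). Col5a2 ranged from 3941 to 5575 (median 4816), with 4 of 6 mice above every saline mouse and a difference of 0.54 (0.16 to 0.91, adjusted p = 0.0577). It was called without saline mouse 8 (0.59, adjusted p = 0.0365) or saline mouse 10 (0.59, adjusted p = 0.04). Col1a1 and Col1a2 had medians of 47073 and 55170 and differences of 0.53 and 0.43 (adjusted p = 0.22 and 0.316).

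Against 4 weeks of bleomycin, Col24a1 was lower at 6 weeks of recovery and no member was called higher, beside 7.14% of all genes lower and 4.80% higher. Col24a1 ranged from 33.9 to 44.5 (median 40.1), with 4 of 6 mice below every 4-week mouse. Its change of -0.59 (SE 0.19, adjusted p = 0.0166) sits on the 1.5-fold limit. The call is lost in 9 of the 44 refits that each leave out 1 mouse, where the change lay between -0.58 and -0.53. These left out 4-week mouse 1, 2, 4, 5, 8 or 10, or recovery mouse 2, 4 or 6. Col5a3 moved the other way, from a median of 1159 to 1582, with 5 of 6 mice above every 4-week mouse. Its change of 0.45 (SE 0.15, adjusted p = 0.0281) missed the fold limit. Col5a1 was at 0.58 (adjusted p = 0.0574), and at 0.64 and called without 4-week mouse 4, 5 or 8. In the same comparison 6 of 12 fibroblast, 5 of 8 adipocyte and 8 of 10 hair markers were called higher and 6 of 8 macrophage and leukocyte markers lower, and their part in the collagen changes was not tested.

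At 10 weeks of recovery none of the 9 members was called against saline by limma, beside 3.05% of all genes. There were 2 at an unadjusted p under 0.05 (19.1% of all genes), none with edgeR and 2 with DESeq2. These 2 were the type I chains. Col1a1 ranged from 11524 to 28851 (median 18249), with 4 of 8 mice below every saline mouse and a difference of -0.72 (SE 0.25, adjusted p = 0.0754). Col1a2 ranged from 15144 to 36658 (median 23128), with a difference of -0.72 (SE 0.24, adjusted p = 0.0683). Over 42 mice both were called, at -0.74 (adjusted p = 0.0469) and -0.77 (adjusted p = 0.0353), and leaving out saline mouse 2, 2-week mouse 2 or 4-week mouse 3 alone brought 1 or both past the threshold. The other members had differences between -0.75 (Col11a1, adjusted p = 0.28) and 0.06 (Col27a1, adjusted p = 0.841).

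The recovery groups were also compared with each other. For Col1a1, Col1a2, Col3a1, Col5a1 and Col5a2, each of the 8 mice at 10 weeks lay below each of the 6 mice at 6 weeks, a lack of overlap in that direction shown by 0.587% of all genes. Col1a1 ran from 29613 to 62036 at 6 weeks and from 11524 to 28851 at 10 weeks, a log2 change of -1.25 (SE 0.28, adjusted p = 0.0523). Col1a2 ran from 42128 to 72066 and from 15144 to 36658, a change of -1.16 (SE 0.28, adjusted p = 0.0768). Col3a1 ran from 49803 to 75842 and from 23433 to 38816, a change of -1.005 (SE 0.26, adjusted p = 0.108). Col5a1 changed by -0.89 (SE 0.24, adjusted p = 0.136) and Col5a2 by -0.60 (SE 0.19, adjusted p = 0.228).
None of these passed the adjusted threshold in limma as used throughout, which called 0.0880% of all genes. At an unadjusted p under 0.05, 6 members were lower, beside 5.20% of all genes. With only the 2 recovery groups in the fit, all 5 were called (adjusted p between 0.00272 for Col3a1 and 0.0187 for Col1a1), beside 0.282% of all genes called lower. DESeq2 and the fit of 42 mice each called 4 of them (beside 0.256% and 0.264% of all genes called lower), edgeR called Col1a1, and of the 44 refits that left out 1 mouse, 11 called Col1a1 (saline mouse 1 or 10, 2-week mouse 2, 7, 9 or 10, 4-week mouse 3 or 4, 6-week recovery mouse 1, or 10-week recovery mouse 4 or 7 left out) and 5 of those also called Col1a2. The remaining members overlapped between the recovery groups, with changes of -0.12 for Col5a3, 0.02 for Col11a1, -0.17 for Col24a1 and -0.27 for Col27a1. In the same comparison 1 of 6 myofibroblast markers was called, Cthrc1 at -1.74, and none of the 12 fibroblast markers.

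Ratios between chains were taken within each mouse, since they do not depend on the scaling between mice. Differences in the log2 ratio were tested by two-sided permutation tests over mice, exact where a group had fewer than 10 mice, and adjusted over 28 comparisons. The ratio of Col1a1 to Col1a2, the chains of the type I heterotrimer, gave no difference past the threshold in any of the 7 comparisons. Group means of this ratio per transcript length lay between 0.690 (saline) and 0.751 (4 weeks of bleomycin), and the largest difference was 0.12 on the log2 scale (permutation test, adjusted p = 0.115).

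The ratio of Col3a1 to Col1a1 was lowest at 4 weeks of bleomycin. Its mean log2 value was 0.43 ± 0.26 (SD, n = 10) in saline mice, 0.58 ± 0.16 at 2 weeks and 0.10 ± 0.18 at 4 weeks. It was lower by 0.48 at 4 weeks than at 2 weeks (permutation test, adjusted p = 0.00168), with 9 of 10 mice below every 2-week mouse. It was also lower than in saline mice (-0.32, permutation test, adjusted p = 0.0267) and higher again at 6 weeks of recovery than at 4 weeks of bleomycin (0.34, exact permutation test, adjusted p = 0.0295). 
The ratio of Col5a1 to Col1a1 had mean log2 values of -3.41 in saline mice, -3.67 in 2-week and -3.72 in 4-week bleomycin mice, and -3.36 in 6-week and -2.998 in 10-week recovery mice. It was lower than in saline mice at 2 weeks (-0.26, permutation test, adjusted p = 0.0432) and at 4 weeks (-0.30, permutation test, adjusted p = 0.0295). It was higher than in saline mice at 10 weeks of recovery, by 0.42 (exact permutation test, adjusted p = 0.00747), where 5 of 8 mice stood above every saline mouse. It was also higher in the 6-week recovery group than in the 4-week bleomycin group (0.36, exact permutation test, adjusted p = 0.0295), and higher again in the 10-week than in the 6-week recovery group (0.36, exact permutation test, adjusted p = 0.0424).

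The ratio of Col5a3 to Col5a1 was lower than in saline mice at 4 weeks of bleomycin and at 6 weeks of recovery. Per transcript length it averaged 0.800 ± 0.112 (SD, n = 10) in saline mice and 0.855 ± 0.160 at 2 weeks, then 0.561 ± 0.119 at 4 weeks, and 0.511 ± 0.108 (n = 6) and 0.863 ± 0.131 (n = 8) in the 6-week and 10-week recovery groups. At 4 weeks, 9 of 10 mice lay below every saline mouse (log2 difference -0.53, permutation test, adjusted p = 0.0035), and at 6 weeks of recovery 5 of 6 did (-0.66, exact permutation test, adjusted p = 0.0035). All 8 mice at 10 weeks lay above all 6 at 6 weeks (0.77, exact permutation test, adjusted p = 0.00373). At 2 weeks, when both genes were lower, the ratio differed from saline by 0.08 (permutation test, adjusted p = 0.581).

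**Figure D4:**
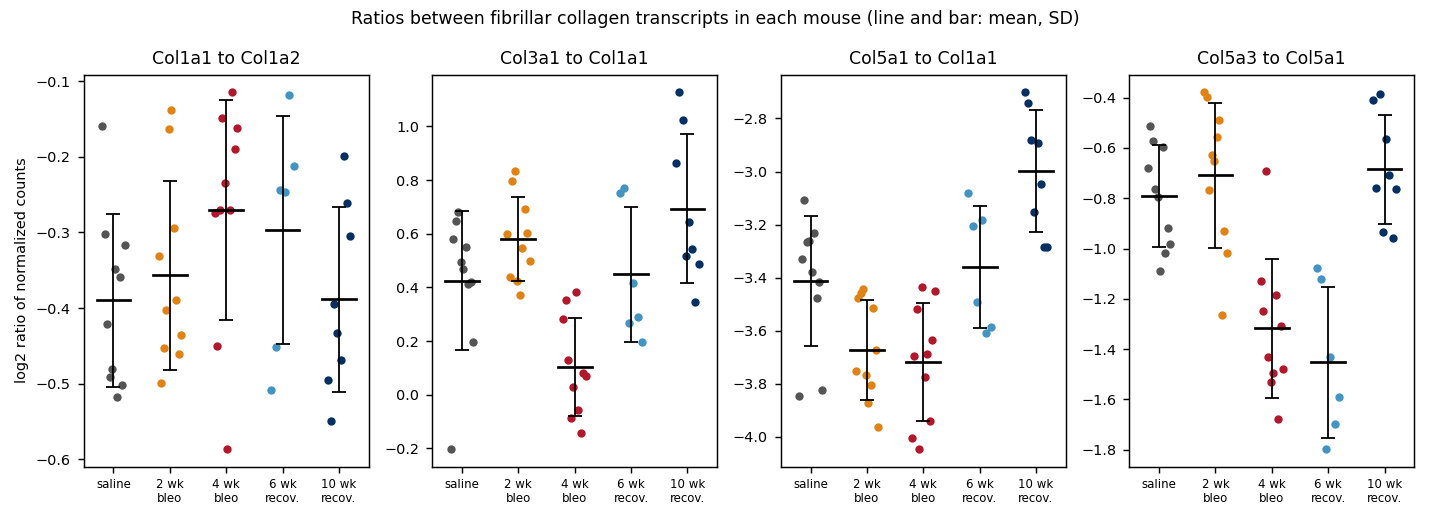
Log2 ratios of normalized counts for 4 pairs of fibrillar collagen transcripts in each mouse by group, with mean and SD. The Col1a1 to Col1a2 ratio overlaps across all groups, whereas the Col5a3 to Col5a1 ratio at 4 weeks of bleomycin and 6 weeks of recovery lies mostly under the other 3 groups.

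Mice of the same group differed from each other in a shared way for the main chains. After group means were taken off, Col1a1 and Col1a2 had a Pearson's r of 0.971 over the 44 mice (Spearman's rho 0.953, within-group permutation p = 5e-05 for both, the smallest these permutations can give, adjusted p = 0.00012 over 36 pairs, and r = 0.962 without the 2 mice farthest out). Col1a1 with Col3a1 gave r = 0.910 (rho 0.880, r = 0.878 without the 2 farthest mice). Col3a1 with its neighbour Col5a2 gave r = 0.909 (rho 0.868, r = 0.883 without them), and Col1a1 with Col5a2 gave r = 0.750 (rho 0.685, r = 0.675 without them). These 3 pairs had the same permutation p and adjusted p as the first. Col11a1 followed Col1a1 less closely (r = 0.382, rho 0.355, permutation p = 0.0154 and 0.0262, adjusted p = 0.0208 and 0.0337, r = 0.249 without the 2 farthest mice). Col27a1 with Col1a1 did not pass (r = 0.315, rho 0.166, permutation p = 0.0599 and 0.309, adjusted p = 0.0617 and 0.327, r = 0.205 without them). The short-helix genes Col24a1 and Col27a1 had r = 0.582 with each other (rho 0.480, permutation p = 0.00045 and 0.00075, adjusted p = 0.000953 and 0.00169), falling to 0.359 without the 2 farthest mice. Points share a library and its scaling, so part of any r between genes of 1 mouse comes from what the library shares.
The same was done with the summed marker lists, 90 relations in all. The myofibroblast list passed adjustment by both measures with Col11a1 and with all 6 chains of types I, III and V. With Col5a1 it had r = 0.643 (rho 0.632, permutation p = 0.0001 and 5e-05, adjusted p = 0.0045 and 0.00225, r = 0.605 without the 2 farthest mice). With Col1a1 it had r = 0.592 (rho 0.563, permutation p = 0.00025 and 0.00035, adjusted p = 0.00643 and 0.0063, r = 0.579 without the 2 farthest mice). With Col11a1 it had r = 0.739 (rho 0.699, permutation p = 5e-05 for both, adjusted p = 0.0045 and 0.00225, r = 0.693 without the 2 farthest mice). The fibroblast list passed adjustment by both measures only with Col3a1 (r = 0.476, rho 0.462, permutation p = 0.00595 and 0.0059, adjusted p = 0.0211 and 0.0212, r = 0.467 without the 2 farthest mice). The endothelial list passed adjustment with all 6 chains of types I, III and V, most closely with Col5a1 (r = 0.589, rho 0.599, permutation p = 0.0005 and 0.0002, adjusted p = 0.00643 and 0.00562, r = 0.494 without the 2 farthest mice). The skeletal muscle list passed for r with the same 6 chains, at most 0.496 with Col5a1 (rho 0.510, permutation p = 0.00105 and 0.00085, adjusted p = 0.00787 and 0.0085, r = 0.454 without the 2 farthest mice), and for rho with all but Col5a2. The Schwann cell list passed with 5 of them, all but Col5a2, at most 0.539 with Col1a2 (rho 0.474, permutation p = 0.00045 and 0.00235, adjusted p = 0.00643 and 0.0132, r = 0.506 without the 2 farthest mice). Col11a1 alone among the members passed adjustment with the hair list (r = 0.432, rho 0.439, permutation p = 0.00145 and 0.0036, adjusted p = 0.0087 and 0.0157, r = 0.455 without the 2 farthest mice). It alone also passed by both measures with the epidermis list, in the opposite direction (r = -0.601, rho -0.568, permutation p = 0.0004 and 0.0005, adjusted p = 0.00643 and 0.0075, r = -0.525 without the 2 farthest mice). Col1a2, Col3a1 and the type V chains passed with that list for rho only, also negative.

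**Figure D5:**
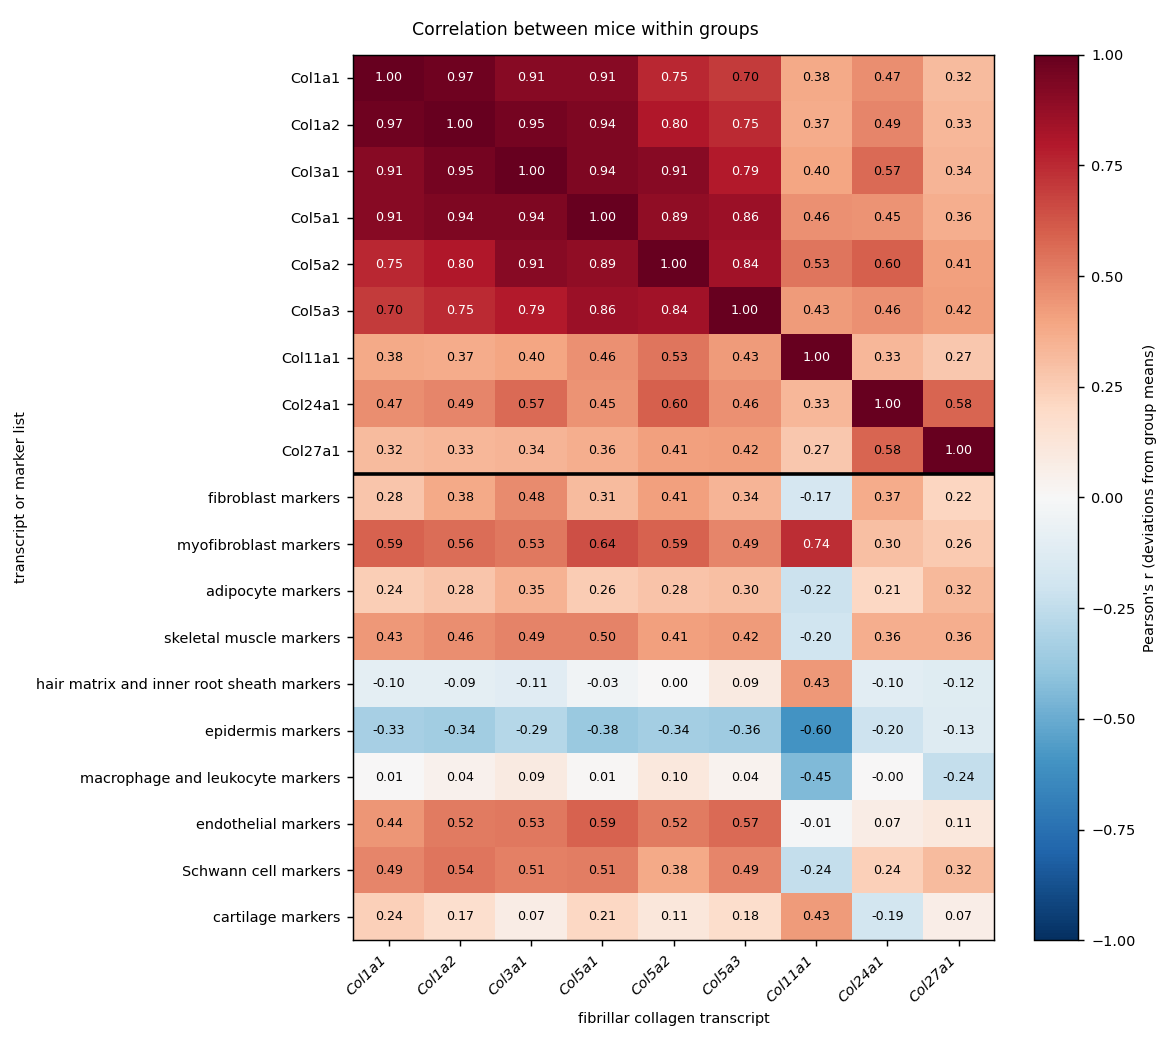
Pearson's r between deviations from group means over 44 mice, for pairs of fibrillar collagen transcripts (above the line) and for marker lists with each transcript (below it). The 6 chains of types I, III and V form a block with r of at least 0.698, and Col11a1, Col24a1 and Col27a1 lie outside it.

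The genes whose levels followed each member most closely within groups, as a description over 44 mice, were largely matrix genes for the main chains. For Col1a2 they were Cpz (r = 0.920), Sparc (0.916) and Adamts2 (0.903), and for Col3a1 they were Sparc (0.920), Adamts2 (0.894) and Cpz (0.867). Sparc encodes a collagen-binding secreted protein, and Adamts2 the protease that removes the amino-terminal propeptide. For Col1a1 they were Chpf, Sparc and Cpz (0.862 to 0.856). Col5a1 was closest to Col15a1 (0.922), Fbln2 (0.919) and Adamts2 (0.913), Col5a2 to Sec24d (0.896), Loxl2 and Fbln2, and Col5a3 to Fbln2 (0.877), Loxl2 and Arhgef40. Sec24d is part of the vesicle coat that exports procollagen from the endoplasmic reticulum. Col11a1 was closest to Fras1 (0.856), Scube3 and Cald1, Col24a1 to Rbfox2 (0.753), Spice1 and Grik1, and Col27a1 to Cdh19 (0.690), Spice1 and Lgi4.

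The remaining vertebrate fibrillar chains, Col2a1 and Col11a2, are cartilage genes. Col2a1 rose at 2 weeks from 2.93 ± 2.43 to 18.5 ± 7.07 normalized counts (n = 10 each, log2 change 2.61, adjusted p = 1.257e-08) and stood at 26.7 ± 7.42 at 4 weeks (3.14, adjusted p = 1.327e-10). At 6 weeks of recovery it was back at 4.33 ± 2.08. Col11a2 was not called in any comparison with saline, with means between 36.5 and 49.7.

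Genes that act inside the cell on procollagen were taken from the lists. Of all genes, 9.30% were called higher than in saline mice and 7.43% lower at 2 weeks. At 4 weeks 10.5% were called higher and 7.37% lower. In either direction 5.04% were called at 6 weeks and 3.05% at 10 weeks of recovery. These shares apply to all the lists below, and the chaperone counts lie near or under them. Of 21 genes for chaperones, folding and secretion, 2 were called lower and 1 higher at 2 weeks, 1 was higher at 4 weeks, 2 were higher at 6 weeks of recovery and none was called at 10 weeks. Serpinh1, the chaperone of procollagen, was lower at 2 weeks, from 4641 ± 778.4 to 2978 ± 851.9 (-0.68, adjusted p = 8.198e-05), as was Creb3l1, a transcription factor of secretory cells (-0.83, adjusted p = 2.958e-06). Tmem38b, a channel of the endoplasmic reticulum, was higher at 2 weeks (0.95), 4 weeks (1.18) and 6 weeks of recovery (0.72), and Sparc was higher at 6 weeks of recovery (0.69, adjusted p = 0.04912), a call lost over 42 mice (adjusted p = 0.0534) and with edgeR (adjusted p = 0.0508). Among 8 hydroxylases and collagen glycosyltransferases, P4ha3, a catalytic subunit of prolyl 4-hydroxylase, was the only one called. It was higher than in saline mice (10.8 ± 7.17) at 2 weeks (16.9 ± 5.70), 4 weeks (38.4 ± 25.8), 6 weeks of recovery (67.1 ± 12.6) and 10 weeks (36.3 ± 17.4). Its 2-week call was lost over 42 mice (adjusted p = 0.0861) and with edgeR (adjusted p = 0.132).

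Outside the cell, 4 of the 7 tested genes for propeptide removal were lower at 2 weeks and 1 was lower at 4 weeks, with none called in recovery. Pcolce2, an enhancer of the carboxy-terminal protease, fell from 956.7 ± 243.4 to 441.3 ± 172.0 at 2 weeks (-1.16) and was at 465.8 ± 124.2 at 4 weeks (-1.03), and Adamts3, an amino-terminal protease, was lower at 2 weeks (-1.25, adjusted p = 0.01279). The 5 lysyl oxidases split. At 2 weeks Loxl1 (-1.21) and Loxl2 (-0.72) were lower, at 4 weeks Lox (1.02) and Loxl3 (0.63) were higher and Loxl1 lower (-0.82), and at 6 weeks of recovery 3 were higher, among them Lox (1.10) and Loxl3 (0.87). Lox, the main enzyme of collagen cross-linking, stood at 595.7 ± 106.2 in saline mice, 1204 ± 200.8 at 4 weeks and 1293 ± 355.7 at 6 weeks of recovery. Over 42 mice Loxl3 at 4 weeks was at 0.56, under the fold limit, and was not called.

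Of 19 tested fibril-associated collagens and fibril regulators, 7 were lower at 2 weeks, 5 were lower and 2 higher at 4 weeks, 5 were higher at 6 weeks of recovery and 1 was higher at 10 weeks. Dpt, dermatopontin, which binds decorin and fibrils and is also in the fibroblast list, fell from 4930 ± 937.8 to 1784 ± 563.5 at 2 weeks (-1.50) and was 1769 ± 188.7 at 4 weeks (-1.46). Col14a1, a collagen on the fibril surface, was lower at 2 weeks (-1.38) and 4 weeks (-1.19) and higher at 10 weeks of recovery (0.75). Col12a1, another such collagen, was higher at 4 weeks (1.70), as was Col20a1 (0.92). The small proteoglycans Prelp (1.10) and Fmod (1.08) were higher at 6 weeks of recovery.

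Of 12 tested receptors and uptake genes, 2 were higher and 2 lower at 2 weeks, 3 higher and 1 lower at 4 weeks, 1 higher at 6 weeks of recovery and none was called at 10 weeks. Over 42 mice 3 were higher at 2 weeks and 2 were lower at 4 weeks. Lair1, a collagen receptor of leukocytes, rose from 29.1 ± 9.68 to 289.7 ± 144.3 at 2 weeks (3.21) and was called also at 4 weeks (2.92) and 6 weeks of recovery (0.95). Plaur was higher at 2 weeks (1.16) and 4 weeks (1.52). Itga11, the fibroblast integrin subunit that binds type I collagen, fell from 267.8 ± 72.1 to 78.1 ± 34.7 at 2 weeks (-1.84) and was lower at 4 weeks (-0.70), and the uptake receptor Mrc2 was lower at 2 weeks (-0.61).

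Of 14 tested genes of collagen degradation, 3 were higher and 2 lower at 2 weeks, 4 higher and 1 lower at 4 weeks, 2 higher at 6 weeks of recovery and none was called at 10 weeks. Timp1, an inhibitor of metalloproteinases, rose at 2 weeks (2.69) and 4 weeks (2.38). The collagenases Mmp13 (2.16 at 2 weeks) and Mmp8 (3.19 at 4 weeks) were higher, while Fap (-0.93 and -1.03) and Timp2 (-0.79 at 2 weeks) were lower. Ctsk (1.16) and Mmp2 (0.94) were higher at 6 weeks of recovery, where 3 genes of the list were called over 42 mice. Of 18 tested transcription factors named as regulators of type I collagen genes, 1 was higher at 2 weeks (Fli1, 0.69), 1 was lower (Twist2, -0.78), none was called at 4 or 10 weeks and Scx, a tendon factor, was higher at 6 weeks of recovery (0.61). These counts of transcription factors are near or under the shares of all genes given above. Over 42 mice Fli1 was at 0.52 and was not called.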

How the data were processed

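Polyadenylated RNA from mouse skin was sequenced as stranded paired-end libraries. According to the submitters' processing notes the authors aligned reads with STAR 2.4.0 to mm10 and used DESeq2 1.12.3. They deposited normalized counts per gene (a signal: read counts divided by 1 size factor per mouse) for 44 mice, and the counting tool, strand setting and annotation are not given in the sources used here, so overlapping and antisense genes are uncertain. Dividing by the value of 1 read gave whole reads for 100.0% of values (tolerance 0.001).

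Groups follow the labels, and each mouse is a separate animal. The members and the gene lists were chosen with earlier results of these data known. Log2(normalized count + 1) was fitted over all 5 groups with limma 3.58.1 in R 4.3.3 (mean-variance trend, genes with a mean above 3, Benjamini-Hochberg adjustment), after a test on simulated data. All members are named, with up to 2 called genes per direction from each list in each comparison with saline, and the 3 closest genes of each member. Cthrc1, Lrrc15, Sox10, Pi16, Pdgfra, Matn1 and Acan, and the values of Fbln2 and Cdh19, were named after their values were seen. Alternatives were a pseudocount of 0.1, other filters (none, or 10 or more normalized counts in 6 or more mice), no fold limit, quantile and TMM scaling, fits of 2 groups, a replicate block, 42 mice, leaving out each mouse, and edgeR 4.0.16 and DESeq2 1.42.0 on the recovered reads. Ratios were tested with 100000 resamples or exactly, and correlations with 20000 permutations within groups. Gene positions are of GRCm38 (mm10).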

Additional observations from a re-analysis of the deposited data

Results flagged for a closer look

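In 1 of 45 sets of values (9 members in 5 groups), 1 mouse stood far from the others: Col11a1 was 294.3 normalized counts in 10-week recovery mouse 1, against 156.3 in the next mouse, a gap of 0.602 of the group's range. About 1 in 20 such sets is marked by chance, or 2.25 of the 45 here.

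The effects of 4 and 2 weeks of bleomycin, each taken against the same saline mice, differed in limma's test of the difference for Col1a1 (log2 difference 1.015, adjusted p = 0.00763), Col1a2 (0.9279, adjusted p = 0.0118), Col5a1 (0.9689, adjusted p = 0.00248), Col5a2 (0.6177, adjusted p = 0.0168) and Col24a1 (0.8864, adjusted p = 0.000816). The effects of 6 weeks of recovery and 4 weeks of bleomycin differed for Col24a1 (-0.5851, adjusted p = 0.0166). Since the saline mice are shared and cancel, these are the same tests as the comparisons of 4 with 2 weeks of bleomycin and of 6 weeks of recovery with 4 weeks of bleomycin in the report, and no further evidence.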

How the results depend on the processing

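Counts of called members were 5, 1, 0 and 0 against saline at 2 weeks, 4 weeks, 6 weeks of recovery and 10 weeks, then 5 for 4 against 2 weeks, 1 for 6 weeks of recovery against 4 weeks, and 0 for 10 against 6 weeks of recovery. The 5 calls at 2 weeks were 5 or 6 in every setting that kept all mice and with 42 mice. At 4 weeks the count was 3 with no fold limit and 2 with edgeR or DESeq2. At 6 weeks of recovery it was 1 with DESeq2. At 10 weeks it was 1 with quantile scaling and 2 with 42 mice or DESeq2. For 4 against 2 weeks it was 3 with only those groups fitted. For 6 weeks of recovery against 4 weeks it was 2 with no fold limit and 0 with quantile scaling. For 10 against 6 weeks of recovery it was 1 with a pseudocount of 0.1, the stricter filter, TMM or edgeR, 4 with 42 mice or DESeq2, and 5 with only those groups. Leaving out each mouse gave 4 to 6, 1 to 2, 0 to 1, 0 to 2, 4 to 6, 0 to 1 and 0 to 2 calls in the same order. The Col1a1 to Col1a2 ratio at 4 weeks passed over 42 mice (0.145, permutation test, adjusted p = 0.0437). The cause of these changes was not tested. No called change of a member turned its sign.

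The replicate numbers name different mice and do not pair them: 78 same-numbered pairs across groups had a median correlation of -0.002 (lowest -0.691). With a replicate block the counts were 4 at 6 weeks of recovery, 2 for 6 weeks of recovery against 4 weeks and 3 for 10 against 6 weeks of recovery. With the block, ratio tests no longer passed for Col3a1 to Col1a1 (-0.321 at 4 weeks, 0.266 for 6 weeks of recovery against 4 weeks), for Col5a1 to Col1a1 (-0.304 at 4 weeks, 0.364 at 10 weeks, 0.385 and 0.457 for the recovery steps) and for Col5a3 to Col5a1 (-0.718 at 6 weeks of recovery, 0.826 for 10 against 6 weeks). For these ratio tests, same-numbered mice were compared pair by pair with an exact sign-flip test. With the 6 mice at 6 weeks of recovery, that test can give no p below 0.0312 before adjustment. Its losses in comparisons with that group therefore cannot decide whether those ratios depend on the setting. The number of mice limits precision most for the recovery groups, and reads do for Col24a1, with 10 to 94 per mouse.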

Other observations

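Marker lists outside the dermal fibroblast were also measured beside the collagens. Of all genes, 9.30% were called higher than in saline mice and 7.43% lower at 2 weeks. At 4 weeks 10.5% were called higher and 7.37% lower. In either direction 5.04% were called at 6 weeks and 3.05% at 10 weeks of recovery. All 6 Schwann cell markers were called higher than in saline mice at 4 weeks of bleomycin and at 6 weeks of recovery, 2 at 2 weeks and 5 at 10 weeks of recovery. Over 42 mice 4 were called at 4 weeks and 2 at 10 weeks of recovery, and edgeR called 3 at 10 weeks of recovery. The summed list ran from 526.8 to 1551 normalized counts per kb in saline mice and from 1457 to 2551 at 6 weeks of recovery. Cdh19 of this list, which followed Col27a1 most closely, was 1.35 higher on the log2 scale at 4 weeks. Of 8 adipocyte markers, 4 were lower at each bleomycin time (2 at 2 weeks with edgeR) and none was called at either recovery time. Of 6 endothelial markers, 2 were higher at each bleomycin time (3 at 4 weeks with edgeR), 4 at 6 weeks of recovery and none at 10 weeks. Of 9 skeletal muscle markers, none was called at 2 weeks, 1 was higher and 1 lower at 4 weeks and 1 was higher in each recovery group. Over 42 mice 2 were lower and none higher at 4 weeks, and none was called at 10 weeks of recovery, there also with edgeR. Of 6 myofibroblast markers, 1 was lower at 2 weeks, 1 was higher and 1 lower at 4 weeks and 1 was higher in each recovery group. A count of 1 gene in a list this short is not read as a result about the list.

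Of 8 cartilage markers only 4 passed the filter on level. Col2a1 and Matn1 (2.19 at 4 weeks) were higher at both bleomycin times, while Acan was lower (-2.15 at 4 weeks, and -2.30 at 6 weeks of recovery). The summed list was low in every group, with medians between 5.6 and 13.7 per kb.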
